A study of Mus musculus with 12 samples.

Results

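The comparison set 2 induced pluripotent stem (iPS) lines made with oxysterol and Oct4 against 2 made with purmorphamine and Oct4, on 4 of the 12 one-colour Agilent arrays of a mouse series on reprogramming with Bmi1. The members were the arrays whose titles named these lines, and a gene was reported where both lines of one group lay above both of the other and its probe was well above background in the higher group. All 4 lines came from mouse embryonic fibroblasts (MEF) that had first become neural stem cell-like (NSC-like) cells, were treated there with 1 of the compounds, and were then transduced with Oct4 (Pou5f1), so Oct4 transduction and fibroblast origin were common to both groups. The labels give no fibroblast strain, dose, treatment time or passage, name no single oxysterol, and do not say whether the NSC-like cells of these 4 lines also carried Bmi1. The other 8 arrays, used here only for reference levels and for the spread between lines, held embryonic stem (ES) cells from 129/Ola mice, MEF, spheres of Bmi1-transduced NSC-like cells, 2 Bmi1-Oct4 lines, 1 Shh-Oct4 line, and 2 oxysterol-Oct4 lines from adult tail-tip fibroblasts. Each line was measured once, and nothing in the labels says whether the lines of a group came from separate cultures or fibroblast preparations, so p-values measure only the spread between these samples.

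Both compounds activate hedgehog signalling at the same receptor. Without ligand, Patched (Ptch1) holds Smoothened (Smo) inactive; when Smoothened is active it moves into the primary cilium, and Gli transcription factors switch on targets that include Gli1 and Ptch1 themselves. Oxysterols are oxidised forms of cholesterol that bind the extracellular cysteine-rich domain of Smoothened, while purmorphamine is a synthetic purine derivative that binds its transmembrane domain. Oxysterols have further known targets: they activate the liver X receptors (LXR), which switch on sterol efflux genes and Srebf1, and they hold back the processing of SREBP2, which switches on the genes of cholesterol synthesis. The arrays report the lines after reprogramming, and the labels do not say that a compound was still present when RNA was taken.

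The upstream sequences of 4 genes from the lists described later are shown because sterol and interferon genes are each known to share a promoter motif. They are the 250 bases before the annotated start of the gene, 5′ to 3′ on the strand of the gene, from RefSeq on GRCm38.p6, and capitals mark a match to the sterol response motif TCACNCCAC in the first pair of genes (Hmgcs1 and Mvd) or to the interferon response motif (GAAA, any 2 bases, GAAA) in the second pair (Ddx58 and Gbp2), on either strand and with overlapping matches allowed.
Hmgcs1, chr13:119690101-119690350, plus strand: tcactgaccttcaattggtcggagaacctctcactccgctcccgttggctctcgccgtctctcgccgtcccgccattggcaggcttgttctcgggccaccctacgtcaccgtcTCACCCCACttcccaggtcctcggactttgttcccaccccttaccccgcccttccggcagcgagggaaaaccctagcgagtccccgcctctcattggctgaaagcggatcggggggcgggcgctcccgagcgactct
Mvd, chr8:122443423-122443672, minus strand: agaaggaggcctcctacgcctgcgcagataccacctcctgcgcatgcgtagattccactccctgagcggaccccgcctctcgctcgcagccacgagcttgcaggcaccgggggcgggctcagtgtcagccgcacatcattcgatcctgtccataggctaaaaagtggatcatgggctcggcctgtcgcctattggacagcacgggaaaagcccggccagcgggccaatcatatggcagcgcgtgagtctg
Ddx58, chr4:40239826-40240075, minus strand: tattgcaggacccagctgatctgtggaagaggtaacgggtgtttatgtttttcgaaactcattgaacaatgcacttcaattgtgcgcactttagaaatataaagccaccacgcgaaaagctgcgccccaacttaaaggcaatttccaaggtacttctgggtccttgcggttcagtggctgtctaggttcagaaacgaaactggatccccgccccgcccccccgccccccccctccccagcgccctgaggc
Gbp2, chr3:142620413-142620662, plus strand: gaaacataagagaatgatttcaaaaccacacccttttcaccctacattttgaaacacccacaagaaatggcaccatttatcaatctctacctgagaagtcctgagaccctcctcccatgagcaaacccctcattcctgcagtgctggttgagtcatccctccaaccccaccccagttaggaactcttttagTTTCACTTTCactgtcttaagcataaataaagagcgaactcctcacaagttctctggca
Hmgcs1 had 1 match to the sterol motif and Gbp2 had 1 to the interferon motif. The Gbp2 match lies on the opposite strand, so it appears as TTTCACTTTC in the sequence as printed. Mvd and Ddx58 had 0 matches in this window. Of 17 cholesterol synthesis genes with a listed promoter, 1 held the sterol motif (5.88%), beside 1.04% of all 27025 promoters. That share rests on Hmgcs1 alone. The interferon motif was also held by 1 of the 17, Ebp. Of 23 interferon-stimulated genes, 9 held the interferon motif (39.1%), beside 3.04% of all promoters. A match is a description of the letters in this window and not a measured site.

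Levels are given as log2 signal minus the array's 75th percentile over gene spots, so that 0 is the 75th percentile of an array; the floor, the lowest signal well above background, lay between -5.83 and -4.51 on the 4 arrays. Gaps and folds were computed after each signal below its array's floor had been raised to it, while the levels printed are the unraised ones. A fold is written as a lower bound where 1 or both lines of the lower group were not well above background. The 75th percentile of the processed signal was 1340 in oxysterol-Oct4 line 1, 1871 in oxysterol-Oct4 line 2, 1891 in purmorphamine-Oct4 line 1 and 2042 in purmorphamine-Oct4 line 2, and the number of arrays limits the precision. The share of spots well above background was 64.2% and 70.3% in the oxysterol-Oct4 lines and 63.7% and 61.5% in the purmorphamine-Oct4 lines. Purmorphamine-Oct4 line 1 was hybridised on another slide than the other 3 lines, so a value within 1 slide rests on purmorphamine-Oct4 line 2 alone.

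All 4 lines carried the markers of pluripotent cells. Of 32 measured pluripotency genes, 31 or 32 were well above background in each line, and the list's median level was 2.28 and 2.81 in the oxysterol-Oct4 lines and 3.14 and 2.38 in the purmorphamine-Oct4 lines, beside 2.88 in ES and -4.74 in MEF. The level of Pou5f1, the gene of the transduced factor, was 3.47 and 3.71 in the oxysterol-Oct4 lines and 4.12 and 3.36 in the purmorphamine-Oct4 lines, and the groups overlapped. Whether its probe also reads the transduced copy was not tested. Nanog, a core pluripotency factor, was at 3.94 and 5.06 against 4.92 and 4.96, with the groups overlapping and 2 of the 4 spots saturated. Sox2, which is not among the transduced factors and is a partner of Oct4, was at 4.09 and 4.36 in the oxysterol-Oct4 lines and 3.42 and 3.32 in the purmorphamine-Oct4 lines. Both oxysterol-Oct4 lines lay above both purmorphamine-Oct4 lines for Sox2, by 1.81-fold (difference 0.85 ± 0.37, SE, 2 lines a group), and its level in ES was 3.71. Nr0b1 (Dax1), a nuclear receptor of the pluripotency network, ran the other way, at -1.0 and 0.53 against 2.85 and 1.54, a 5.38-fold higher level in the purmorphamine-Oct4 lines. Its level was 1.03 in ES, so the 2 groups lay on either side of ES. Of the 32 genes 3 lay higher in both oxysterol-Oct4 lines, beside 15.0% of all genes, and 5 in both purmorphamine-Oct4 lines, beside 9.67%. Among genes well above background in both lines of a group, as 31 of the 32 were, the shares were 20.7% and 13.4%.

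No gene passed the test between the groups. A limma model of 8 groups over the 12 arrays, with 4 residual degrees of freedom, called 0 of 25404 genes (0%) higher in either direction at a Benjamini-Hochberg adjusted p under 0.05, and the lowest adjusted p was 0.871. At an unadjusted p under 0.05 there were 1228 genes, where 5% of those tested would be 1270. The unadjusted 95% interval of a gene's difference had a median half-width of 1.57 on the log2 scale, or 2.96-fold. The adjusted test is stricter than this interval. On simulated data it found 2% of changes of 2 log2 units and 48% of changes of 4, so differences larger than the half-width could also go uncalled. What follows are therefore orderings of 4 values, given as descriptions, and a wider gap is no test.

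Pairs of lines within a group fell inside the range of pairs between the groups. Among genes well above background in at least 1 line of a pair, 38.1% were at least 2-fold apart between the 2 oxysterol-Oct4 lines and 28.5% between the 2 purmorphamine-Oct4 lines. For the 4 pairs across the groups the share was 41.3%, 36.4%, 27.5% and 25.7%. The last pair, oxysterol-Oct4 line 2 and purmorphamine-Oct4 line 2, differed at the fewest genes of the 6 pairs, and the first, oxysterol-Oct4 line 1 and purmorphamine-Oct4 line 1, at the most. Across genes, which are not independent replicates, Pearson's r was 0.907 and 0.926 within the groups and 0.905 to 0.935 between them.

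**Figure D1:**
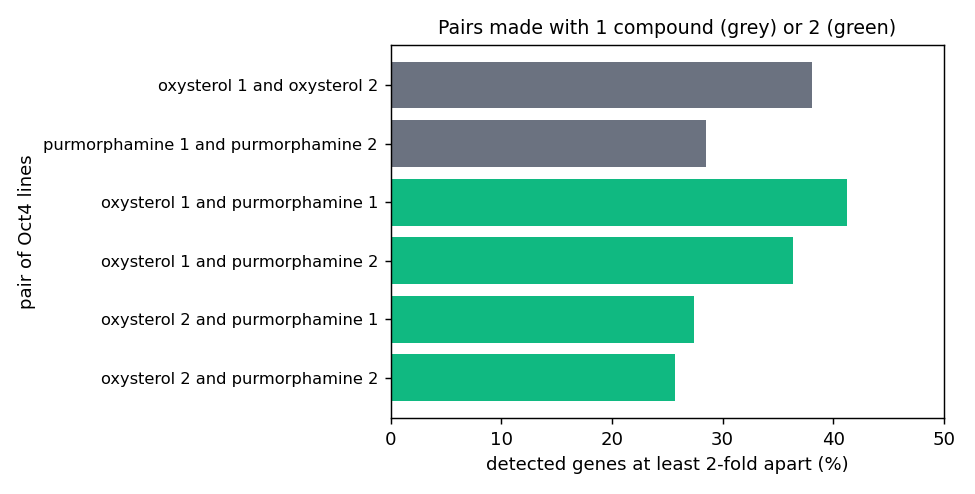
Percentage of detected genes at least 2-fold apart (horizontal axis) for each of the 6 pairs of lines. Grey bars are pairs made with the same compound and green bars pairs made with different compounds; the grey bars (38.1% and 28.5%) lie within the range of the green ones (25.7% to 41.3%).

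Of 25263 genes with a value on all 4 arrays, 3777 (15.0%) lay higher in both oxysterol-Oct4 lines and 2444 (9.67%) higher in both purmorphamine-Oct4 lines. The gap, the lowest value of the higher group minus the highest of the lower one after raising signals to the floors, had a median of 0.28 and 0.32 log2 units in the 2 directions. A gap of at least 1 log2 unit was found for 298 genes (1.18%) higher in the oxysterol-Oct4 lines and 326 (1.29%) higher in the purmorphamine-Oct4 lines, and a gap of at least 2 for 45 and 49. Over the 18241 genes well above background in both lines of a group the shares were 20.7% and 13.4%, and 1.63% and 1.79% at a gap of 1. Only such genes, called detected genes below, could be counted. Their shares are the closer comparison for gene lists that are mostly detected. Just inside the gap of 1, Slc6a3 was at 0.09 and -0.60 in the oxysterol-Oct4 lines and -1.60 and -2.14 in the purmorphamine-Oct4 lines; just outside, Pbk was at -0.18 and 0.18 against -1.17 and -1.35. On the other side Pcdhb20 was just inside, at -7.02 and -6.04 against -2.46 and -4.13, since its oxysterol-Oct4 signals counted at the floors, and Zscan21 just outside, at -3.91 and -2.66 against -1.67 and -1.14.

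The larger count in favour of oxysterol depended on the scaling and on bright genes. With each array scaled on probes detected on all arrays the counts were 2931 higher in the oxysterol-Oct4 lines and 3163 higher in the purmorphamine-Oct4 lines, and with quantile normalization 3421 and 2810. In the brightest 25% of detected genes 27.0% lay higher in the oxysterol-Oct4 lines and 8.60% in the purmorphamine-Oct4 lines, while in the dimmest 25% the shares were 18.4% and 16.0%. Of the genes saturated on any of the 4 arrays, 210 lay higher in the oxysterol-Oct4 lines and 13 in the purmorphamine-Oct4 lines, and 0 of these had a gap of 1. The 258 genes saturated on all 4 arrays had a median level of 5.63 in oxysterol-Oct4 line 1, 5.13 in line 2, and 5.04 and 5.01 in the purmorphamine-Oct4 lines, in the order of the arrays' 75th percentiles, which are subtracted from a common ceiling.

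Other probes of the same gene gave further measurements that the ordering had not used. They read the same RNA samples on the same arrays, so they could show only whether probes of a gene had the same order. Whether the groups differ beyond these lines could not be tested with them. Only other probes well above background in both lines of the higher group were counted, also among all other probes. The opposite order was counted only where both lines of the other group were well above background too. Genes with a gap of 1 in favour of oxysterol had 70 such probes. Of these, 26 (37.1%) had the same order and 1 the opposite, beside 20.3% in that order among all other probes. Genes with a gap of 1 in favour of purmorphamine had 52 such probes, of which 34 (65.4%) had the same order and 0 the opposite, beside 18.6%. All other probes of the 12 widest gaps each way were also checked, dim ones included. A probe counted as repeating the order only if well above background in both higher lines. This held for 1 of 7 in favour of oxysterol and 0 of 6 in favour of purmorphamine. Dim probes of Fank1 and Bmper had the order of their main probes, and those of Scnn1a and Tdpoz1 the opposite.

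The 12 widest gaps in favour of the oxysterol-Oct4 lines ran from 2.69 to 4.03 log2 units, with dim signals at the floors. The probe of Tgm2, which encodes transglutaminase 2, a protein cross-linking enzyme, lies at chr2:157857429-157857488 (mm7, the build of the array files). Tgm2 was at -0.34 and -0.48 in the oxysterol-Oct4 lines and -5.06 and -6.41 in the purmorphamine-Oct4 lines, where it was not well above background. It was at least 19-fold higher in the oxysterol-Oct4 lines. The ES level was -0.37, like that of the oxysterol-Oct4 lines, and the MEF level -4.48. A second Tgm2 probe did not separate the groups, at -2.21 and -4.30 against -3.51 and -5.05.

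Tbc1d12, a member of the Rab GTPase-activating protein family, was at 0.62 and -1.33 against -4.35 and -4.66, at least 16.9-fold higher in the oxysterol-Oct4 lines. Its second probe had the same order, at -0.59 and -1.80 against -5.26 and -6.13. This was the only 1 of the 7 other probes of these 12 genes to repeat the order and be well above background.

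Gchfr, the feedback regulator of GTP cyclohydrolase I (probe at chr2:118913162-118913221, mm7), was at 2.46 and 1.96 against -1.69 and -0.93 and was well above background in all 4 lines (11.5-fold). Here the groups lay on either side of ES (0.72) and MEF (1.64) lay just below the oxysterol-Oct4 lines. Kcng1, a modifier subunit of voltage-gated potassium channels, was at 1.25 and -1.24 against -4.98 and -5.00, at least 25.4-fold higher, with the 2 oxysterol-Oct4 lines themselves far apart. Scnn1a, a subunit of the epithelial sodium channel, was at -1.19 and -1.0 against -4.87 and -6.53 (at least 11.9-fold).

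Fank1, a gene best known from the testis, was at least 11.4-fold higher in the oxysterol-Oct4 lines and Cryba2, which encodes a beta-crystallin of the lens, at least 13.1-fold. The others were Ppp2cb, a catalytic subunit of protein phosphatase 2A (at least 11.8-fold), Gfra3, a co-receptor for artemin (at least 10.8-fold), Tdpoz1 (at least 9.05-fold), Rps6kl1 (at least 11.6-fold) and Hpx, the haem carrier hemopexin (at least 7.68-fold). Of these 12 genes 9 were not well above background in either purmorphamine-Oct4 line. Unadjusted limma p-values ran from 0.000265 to 0.0128, and each adjusted p was 0.871.

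The 12 widest gaps in favour of the purmorphamine-Oct4 lines ran from 2.45 to 2.89 log2 units, with dim signals at the floors. Mrc2, a collagen-binding receptor of mesenchymal cells (probe at chr11:105459705-105459764, mm7), was at -1.14 and -0.94 in the oxysterol-Oct4 lines and 2.00 and 1.85 in the purmorphamine-Oct4 lines, well above background in all 4 (7.81-fold). Its level in MEF was 3.74. Tgfbr2, the type II TGF-beta receptor (probe at chr9:115760364-115760423, mm7), was at -7.25 and -5.68 against -2.24 and -0.76, at least 14.9-fold higher, with a MEF level of 2.53. Bmper, a secreted BMP regulator, was at -7.12 and -7.90 against -2.54 and -0.90 (at least 13.5-fold), with a MEF level of 3.24. These 3 were all higher in MEF than in any of the 4 lines. Of the 12 genes, 4 were in MEF at or above the lower purmorphamine-Oct4 line. The same held for 6 in the Shh-Oct4 line, 6 in the spheres and 3 in ES. It held for 5 and 3 in the Bmi1-Oct4 lines and 2 and 3 in the tail-tip lines.

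Sgk2, a serum- and glucocorticoid-regulated kinase, was at -5.80 and -7.00 against -1.36 and -2.24 (at least 12.8-fold). Pdyn, which encodes the precursor of the dynorphin opioid peptides, was at -4.84 and -4.08 against -0.86 and -1.47 (at least 9.81-fold). D1Pas1, a DEAD-box helicase gene related to Ddx3x, was at least 8.49-fold higher, Dnah7b, an axonemal dynein heavy chain, at least 11.8-fold, and Arhgap10, a GTPase-activating protein, at least 6.74-fold. Trim61 was at least 9.22-fold higher, Podnl1 at least 7.41-fold and D6Ertd527e at least 14.6-fold. Of these, Pdyn, D1Pas1, Dnah7b, Arhgap10, Trim61 and Podnl1 were well above background in 1 oxysterol-Oct4 line, and Sgk2 and D6Ertd527e in neither. None of the 6 other probes of these 12 genes had the same order and was well above background. Unadjusted limma p-values ran from 0.000647 to 0.09, and each adjusted p was 0.871.

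**Figure D2:**
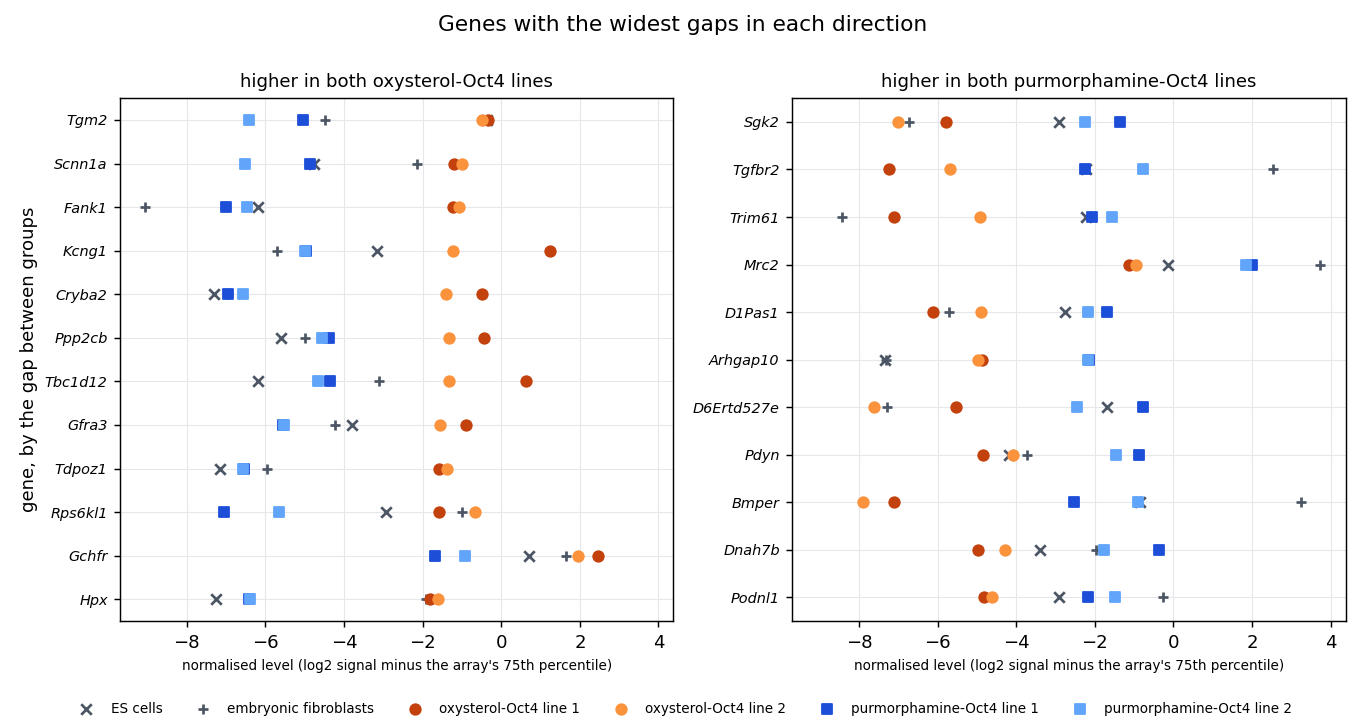
Normalised level (horizontal axis, log2) of the genes with the widest gaps, 12 in favour of oxysterol and 11 in favour of purmorphamine, with circles for the oxysterol-Oct4 lines, squares for the purmorphamine-Oct4 lines, a cross for ES and a plus sign for MEF. Circles and squares do not overlap because the genes were chosen for it; Tgfbr2, Mrc2 and Bmper have their MEF signs to the right of all 4 lines.

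The arrays outside the comparison show where these levels lie among related cells. For the 298 genes higher in the oxysterol-Oct4 lines the median level was -1.07 and -1.17 in those lines, -3.51 and -3.65 in the purmorphamine-Oct4 lines, and -2.78 to -2.40 in the other 5 iPS lines. The 2 tail-tip lines, also made with oxysterol and Oct4, were at -2.59 and -2.45. On the tail-tip arrays 33.6% and 36.9% of the 298 genes lay nearer to the oxysterol-Oct4 mean than to the purmorphamine-Oct4 mean. For the 326 genes higher in the purmorphamine-Oct4 lines the medians were -1.86 and -1.73 in those lines, -4.78 and -3.98 in the oxysterol-Oct4 lines and -2.61 to -2.45 in the other 5 iPS lines.

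The levels in fibroblasts and ES cells were compared for the same genes. Of the 298, 52.7% were at least 2-fold lower in MEF than in ES and 17.8% at least 2-fold higher, beside 37.0% and 20.6% of all genes. Of the 326 genes higher in the purmorphamine-Oct4 lines, 35.0% were lower in MEF and 40.8% higher. Each of these shares rests on 1 MEF and 1 ES array.

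The hedgehog pathway, the shared target of the 2 compounds, showed no common direction. Of 23 measured genes, 22 of them detected, 6 (26.1%) lay higher in both oxysterol-Oct4 lines and 4 (17.4%) in both purmorphamine-Oct4 lines. The shares were 15.0% and 9.67% of all genes, and 20.7% and 13.4% of detected genes. With scaling on probes detected on all arrays the counts turned to 3 and 6. The median difference was -0.23, beside -0.06 over all genes. Smo was at 3.1 and 2.34 against 2.01 and 2.32, with a gap of 0.02, and 1 of its 2 other probes had the same order. The transcriptional readouts overlapped: Gli1 was at -3.87 and -2.80 against -3.61 and -3.94 (difference 0.44, 95% interval -1.23 to 2.12), and Ptch1 at -3.31 and -1.71 against -1.23 and -3.1 (difference -0.34, 95% interval -2.25 to 1.57). Intervals this wide leave differences of over 2-fold either way possible. Ptch1 turned to a difference of 0.60 when only purmorphamine-Oct4 line 2, on the same slide, was used.

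The pathway member with a gap over 1 was Cdon, a co-receptor for hedgehog ligands, at -3.23 and -2.30 in the oxysterol-Oct4 lines and -4.64 and -5.66 in the purmorphamine-Oct4 lines (at least 3.49-fold, with 1 purmorphamine-Oct4 line well above background). Its level in the Shh-Oct4 line was 0.29, above the other 11 arrays. Fewer members lay higher in the purmorphamine-Oct4 lines, 4 against 6, and the next genes are examples of these. Gli2 was at -4.49 and -4.17 against -3.81 and -3.63, and Gli3 at 0.79 and 2.48 against 3.46 and 2.51. Kif7, the ciliary kinesin that controls Gli proteins, was at -6.75 and -4.55 against -3.93 and -3.55. Mycn, a hedgehog target and growth regulator, was at 0.35 and 3.05 against 3.31 and 3.23, where oxysterol-Oct4 line 1 stood apart.

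Genes of the primary cilium, the organelle in which Smoothened acts, had more members higher in the oxysterol-Oct4 than in the purmorphamine-Oct4 lines. Of 22 measured genes, 19 of them detected, 9 were higher in both oxysterol-Oct4 lines and 1 in both purmorphamine-Oct4 lines. The counts were 8 and 1 with scaling on probes detected on all arrays. The shares were 15.0% and 9.67% of all genes, and 20.7% and 13.4% of detected genes. The median difference of the list was 0.12. Kif3a, a motor subunit of the kinesin that builds the cilium, was at -0.44 and -0.53 against -3.15 and -3.08, a 6.21-fold higher level (difference 2.63 ± 0.53, SE; limma unadjusted p = 0.00229, adjusted p = 0.871). The lines of each group differed by less than 0.1 log2 units for Kif3a, and the ES (-1.37) and MEF (-1.24) levels lay between the groups. The other 8 had gaps below 1. Among them Ift57 and Ift52, of the intraflagellar transport particle, were 1.85-fold and 1.48-fold higher, and Bbs9 and Bbs2, of the Bardet-Biedl complex, 1.65-fold and at least 4.16-fold. Without oxysterol-Oct4 line 2 the list's median was -0.052.

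Of the 32 gene lists, cholesterol synthesis had the largest share in one direction. Of 25 measured genes, all of them detected, 14 (56.0%) lay higher in both oxysterol-Oct4 lines and 2 (8.0%) in both purmorphamine-Oct4 lines. The shares were 15.0% and 9.67% of all genes, and 20.7% and 13.4% of detected genes. The median difference of the list was 0.46. The list is a bright one, with 10 of its 25 genes in the brightest 25% of detected genes, and among 18 control genes, 14 of them in that range, 6 lay higher in the oxysterol-Oct4 lines and 1 in the purmorphamine-Oct4 lines. With the 3 genes saturated on any of the 4 arrays left out, the count was 12 and 2 of 22. It was 13 and 3 with quantile normalization, which gave 4 and 3 for the control genes, and 11 and 2 with scaling on probes detected on all arrays.

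The genes cover the pathway from its first steps to its last. Hmgcs1, which makes HMG-CoA and whose promoter is shown above, was at 4.44 and 4.27 in the oxysterol-Oct4 lines and 3.25 and 3.61 in the purmorphamine-Oct4 lines, 1.90-fold higher, and 1 of its 2 other probes had the same order. Mvd, which decarboxylates mevalonate diphosphate, was at 2.79 and 1.86 against 0.34 and 0.82 (3.36-fold), the only member with a gap over 1 once dim signals were raised to the floors.

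Fdps, the farnesyl diphosphate synthase, was at 2.37 and 1.21 against 0.43 and 0.39 (2.62-fold). Lss, the lanosterol synthase, was at -0.01 and -0.03 against -1.31 and -0.68 (1.96-fold). For Lss the 2 oxysterol-Oct4 lines were nearly identical. Msmo1, the sterol C4 methyl oxidase, was at 4.52 and 3.19 against 2.56 and 2.94 (2.15-fold), and Dhcr7, which makes cholesterol in the last step, at 4.82 and 3.71 against 2.73 and 3.28 (2.39-fold).

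Stard4, a sterol transfer protein, was 2.17-fold higher and Tm7sf2, a sterol C14 reductase, 3.25-fold. Insig1, which retains SREBP in the endoplasmic reticulum and is itself an SREBP target, was at -0.56 and -3.60 against -7.10 and -5.72, at least 5.99-fold higher, with both purmorphamine-Oct4 lines dim and a gap of 0.91 above the floor. Sqle, the squalene epoxidase, overlapped between the groups, at 1.59 and 0.78 against 0.45 and 1.33. Other probes of Fdps, Dhcr7, Stard4 and Insig1 did not separate the groups. Of the 4 lines oxysterol-Oct4 line 1 was the highest for 15 of the 25 genes, beside 29.4% of all genes. The summed level of the list was 251 and 190 against 155 and 162. It was 171 and 140.2 in the tail-tip lines, also made with oxysterol, 143.1 and 167.5 in the Bmi1-Oct4 lines and 199.8 in the Shh-Oct4 line. ES were at 182.6, MEF at 193.7 and the spheres at 256.3, so oxysterol-Oct4 line 2 lay within the range of these arrays.

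**Figure D3:**
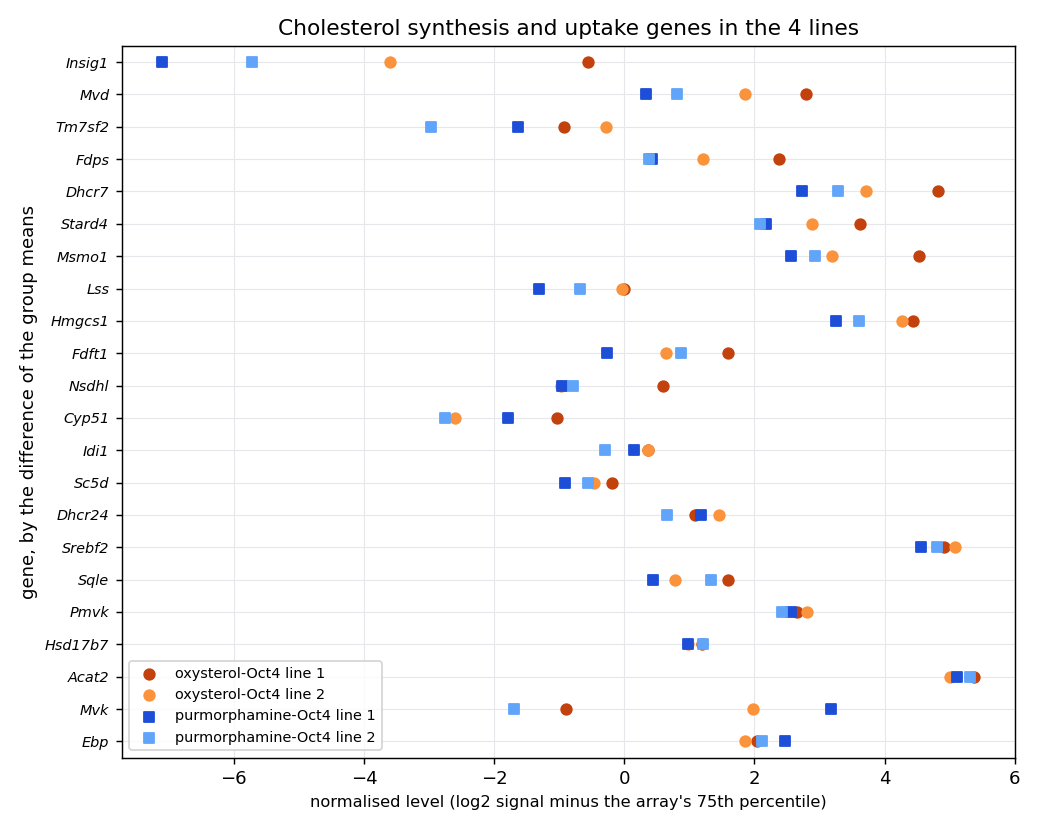
Normalised level (horizontal axis, log2) of 22 of the 25 genes of cholesterol synthesis and uptake in the 4 lines, ordered by the difference of the group means. Circles are oxysterol-Oct4 and squares purmorphamine-Oct4 lines; for 13 of them both circles lie to the right of both squares, most by less than 1 unit.

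LXR targets and sterol efflux genes overlapped between the groups for 14 of 16 members. Among the 16, 2 (12.5%) lay higher in both oxysterol-Oct4 lines and 0 in both purmorphamine-Oct4 lines, beside 15.0% and 9.67% of all genes. Srebf1, the LXR target that drives fatty acid synthesis, was at 1.36 and 1.42 against -0.26 and 0.19 (2.68-fold; difference 1.42 ± 0.46, SE), and its highest level on the other 8 arrays was 0.20. Abcg1, a cholesterol exporter, was at 4.77 and 4.75 against 3.89 and 4.06 (1.73-fold). Abca1, the other main LXR-controlled exporter, overlapped, at -4.19 and -0.89 against 0.02 and -1.29. Among genes of oxysterol metabolism and binding 2 of 21 lay higher in the oxysterol-Oct4 lines and 3 in the purmorphamine-Oct4 lines. Npc1, which exports cholesterol from lysosomes, was at -4.18 and -4.53 against -3.00 and -0.54, 6.0-fold higher in the purmorphamine-Oct4 lines, which differed widely from each other.

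Epithelial genes also had more members higher in the oxysterol-Oct4 lines. Of 20 measured, 17 of them detected, 9 were higher in both oxysterol-Oct4 lines and 0 in both purmorphamine-Oct4 lines. The counts were 8 and 0 with scaling on probes detected on all arrays. The shares were 15.0% and 9.67% of all genes, and 20.7% and 13.4% of detected genes. The median difference of the list was 0.44. St14, the membrane protease matriptase, was at 3.11 and 3.56 against 2.24 and 1.42 (2.84-fold), and Spint1 and Spint2, its inhibitors, were 1.89-fold and 1.97-fold higher. Ovol1, an epithelial transcription factor, was at -0.71 and -1.72 against -3.17 and -2.53 (3.1-fold). Crb3, a polarity protein, was at 0.30 and 0.39 against -0.59 and -1.46 (2.59-fold). The claudins Cldn3, Cldn6 and Cldn7 were 2.05-fold, 1.43-fold and 2.14-fold higher. The 2 defining epithelial markers did not separate the groups: Cdh1 was at 2.95 and 2.77 against 3.17 and 2.55, and Epcam at 0.71 and 2.15 against 1.93 and 0.85. No epithelial gene had a gap of 1.

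**Figure D4:**
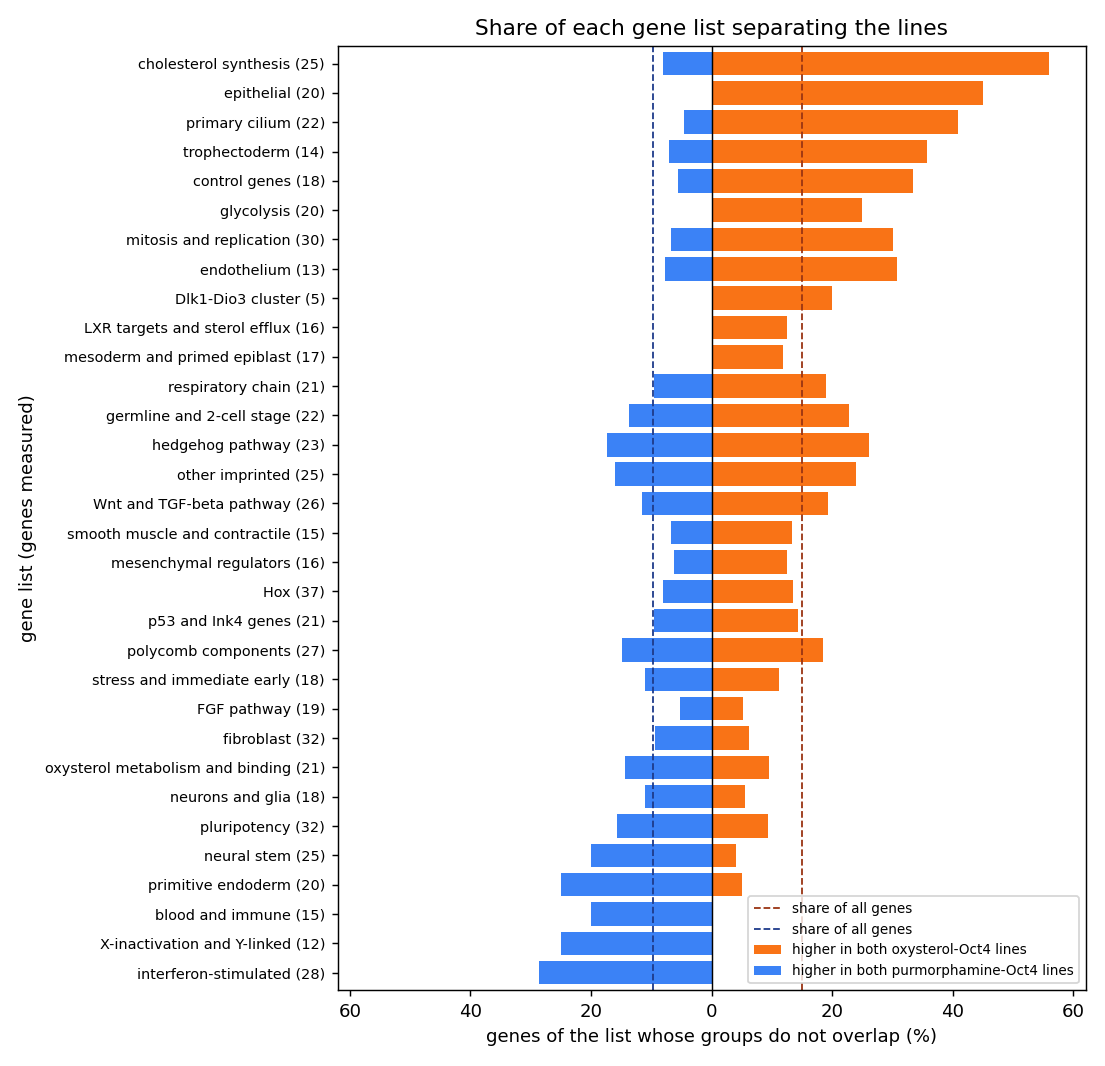
Percentage of the measured genes of each of 32 lists that lay higher in both oxysterol-Oct4 lines (orange, to the right) or in both purmorphamine-Oct4 lines (blue, to the left), with dashed lines at the shares of all genes (15.0% and 9.67%). Cholesterol synthesis has the longest orange bar (56.0%) and interferon-stimulated genes the longest blue one (28.6%).

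Of the 32 lists, interferon-stimulated genes had the largest share in favour of purmorphamine. Among the 4 lines their summed level was highest in purmorphamine-Oct4 line 2. Of 28 measured genes, 23 of them detected, 8 (28.6%) were higher in both purmorphamine-Oct4 lines and 0 in both oxysterol-Oct4 lines. The shares were 9.67% and 15.0% of all genes, and 13.4% and 20.7% of detected genes. The median difference of the list was -1.13. Purmorphamine-Oct4 line 2 was the highest of the 4 lines for 22 of the 28 genes, beside 23.8% of all genes. The summed level of the list was 36.2 and 28.6 in the oxysterol-Oct4 lines, 28.4 in purmorphamine-Oct4 line 1 and 72.2 in line 2, beside 150 in MEF. Other iPS lines were as high or higher: it was 100.2 and 35.8 in the Bmi1-Oct4 lines and 31.7 and 89.8 in the tail-tip oxysterol-Oct4 lines. The Shh-Oct4 line was at 30.9. Without purmorphamine-Oct4 line 2 the median difference was 0.00, and 5 genes were higher in the oxysterol-Oct4 lines and 9 in purmorphamine-Oct4 line 1.

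Ifit1, one of the most strongly induced interferon targets, showed the contrast between lines of a group: it was at 2.66 in purmorphamine-Oct4 line 2 and -6.89 in line 1, and at -0.62 and -7.84 in the oxysterol-Oct4 lines. Ddx58, which encodes the viral RNA sensor RIG-I, was higher in both purmorphamine-Oct4 lines, at -2.66 and -2.38 against -0.70 and 0.37 (5.11-fold). Of its 3 other probes 1 had the same order, at -5.89 and -5.82 against -2.54 and -3.36, another overlapped, at -4.17 and -7.89 against -5.78 and -4.55, and the third was not well above background in the higher lines. Gbp2, a guanylate-binding protein and the other gene with a gap over 1, was at -5.88 and -6.15 against -3.75 and -1.03 (at least 8.49-fold). Of the 9 genes with the interferon motif in the promoter window, 2 lay higher in both purmorphamine-Oct4 lines. This stands beside 8 of the 28 genes of the list and 9.67% of all genes. Stat2, an interferon-responsive transcription factor, overlapped between the groups, at 1.45 and 1.59 against 0.21 and 1.82.

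**Figure D5:**
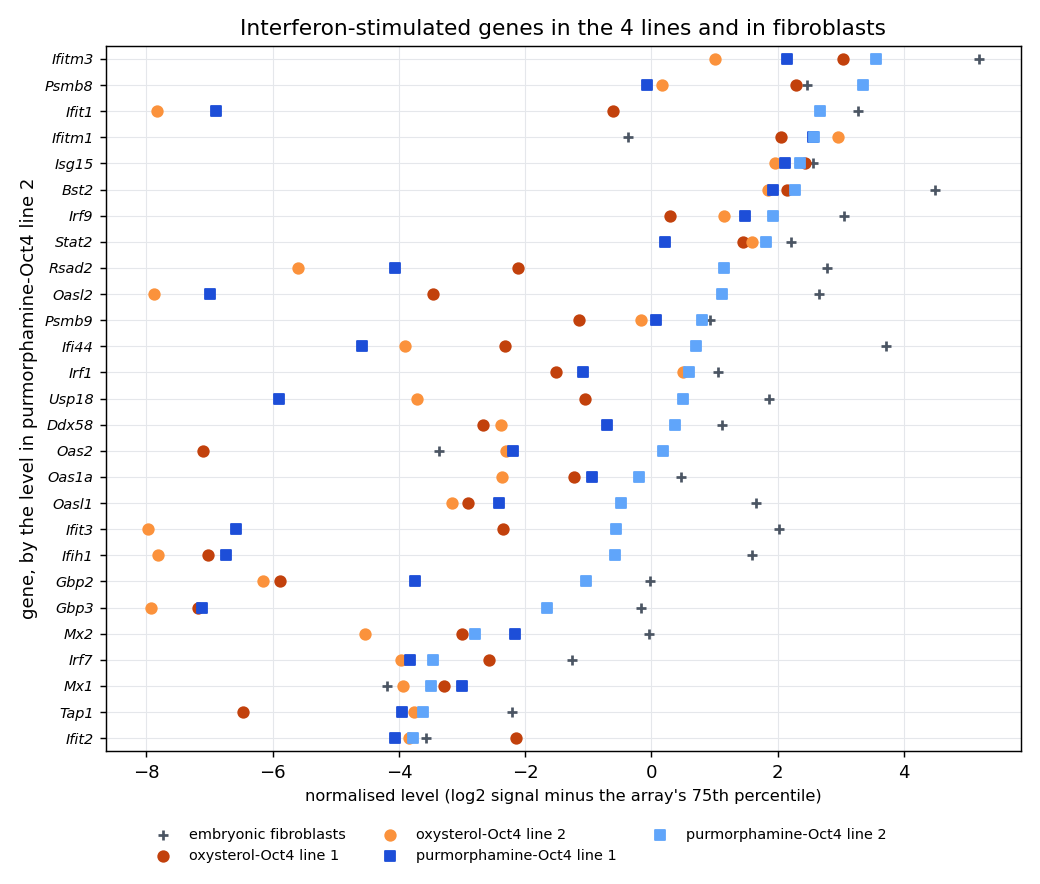
Normalised level (horizontal axis, log2) of 27 of the 28 interferon-stimulated genes in the 4 lines and in MEF (plus signs), ordered by the level in purmorphamine-Oct4 line 2. The light squares of that line are the rightmost of the 4 lines for 21 of them, while the dark squares of purmorphamine-Oct4 line 1 lie among the circles for many of them.

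Among the 4 lines, fibroblast genes were also highest in purmorphamine-Oct4 line 2. The summed level of 32 fibroblast genes was 116 and 63.1 in the oxysterol-Oct4 lines and 45.5 and 138 in the purmorphamine-Oct4 lines, beside 418 in MEF and 57.9 in ES. It was 58.8 and 164.8 in the tail-tip oxysterol-Oct4 lines, 108.5 and 63.7 in the Bmi1-Oct4 lines and 49.7 in the Shh-Oct4 line. Purmorphamine-Oct4 line 2 was the highest of the 4 for 20 of the 32 genes, beside 23.8% of all genes. Between 22 and 29 of the 32 were well above background in each line. Col1a2, a fibrillar collagen chain, was at 2.88 and -0.35 in the oxysterol-Oct4 lines and 0.96 and 4.19 in the purmorphamine-Oct4 lines, and Postn, a matrix protein of fibroblasts, was not well above background in any of them. The part of fibroblast RNA in the interferon, Mrc2, Tgfbr2 and Bmper results was not tested, and in bulk samples more cells of a type and more RNA per cell cannot be told apart. By group, 2 of the 32 fibroblast genes lay higher in both oxysterol-Oct4 lines, beside 15.0% of all genes. In both purmorphamine-Oct4 lines 3 lay higher, beside 9.67%. Among these 3 was Pdgfra, a PDGF receptor also made by primitive endoderm, at -4.39 and -1.97 against -0.81 and 0.01 (6.89-fold). Its second probe was not well above background in the higher lines.

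Markers of the first lineages of the embryo ran in both directions. Of 20 primitive endoderm genes 5 lay higher in the purmorphamine-Oct4 lines, beside 9.67% of all genes, and 1 in the oxysterol-Oct4 lines, beside 15.0%. Cubn, the endocytic receptor cubilin of the visceral endoderm, was at -4.83 and -1.36 against 0.54 and 1.24 (at least 15.8-fold, with 1 oxysterol-Oct4 line well above background), with an ES level of 2.51. Sox17 and Sox7, transcription factors of the endoderm, were at least 2.60-fold and 5.11-fold higher in the purmorphamine-Oct4 lines, each well above background in 1 oxysterol-Oct4 line.

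Of 14 trophectoderm genes 5 lay higher in the oxysterol-Oct4 lines and 1 in the purmorphamine-Oct4 lines, beside 15.0% and 9.67% of all genes. Esx1, an X-linked homeobox gene of the placenta, was at 0.72 and -1.69 against -5.17 and -3.14 (at least 11.3-fold, with 1 purmorphamine-Oct4 line well above background). Hand1, a regulator of trophoblast giant cells, was at -2.02 and -0.58 against -3.39 and -3.76 (4.84-fold). Tbx6, a regulator of paraxial mesoderm, was at -1.05 and -1.15 against -5.11 and -3.07 (at least 7.18-fold, with 1 purmorphamine-Oct4 line well above background). Dkk1, a secreted Wnt antagonist, was at least 7.64-fold higher in the purmorphamine-Oct4 lines, with 1 oxysterol-Oct4 line well above background. Its list of 26 Wnt and TGF-beta genes had 5 members higher in the oxysterol-Oct4 lines and 3 in the purmorphamine-Oct4 lines. Cdh5, the endothelial cadherin, was 4.41-fold higher in the purmorphamine-Oct4 lines. It was the only 1 of 13 endothelial genes in that direction, while 4 lay higher in the oxysterol-Oct4 lines.

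Chromatin and X-linked regulators gave a few single genes. Bmi1, the Polycomb gene used elsewhere in the series, was at -3.19 and -2.61 against -2.47 and -1.98, with a gap of 0.14 (1.60-fold higher in the purmorphamine-Oct4 lines), and its second probe overlapped. Its level was 0.37 in MEF and -2.10 in ES. Eed, a core subunit of Polycomb repressive complex 2, was at -2.76 and -1.54 against 0.19 and 0.84 (6.37-fold; difference -2.67 ± 0.58, SE), and its ES level of -0.36 lay between the groups. Of 27 Polycomb genes 5 (18.5%) lay higher in the oxysterol-Oct4 lines and 4 (14.8%) in the purmorphamine-Oct4 lines, near the 20.7% and 13.4% of detected genes, and 3 and 6 with scaling on probes detected on all arrays. Tsix, the antisense transcript of Xist, was at -0.64 and 0.72 against 2.37 and 1.95 (4.34-fold), and Xist itself, the RNA that coats the inactive X chromosome, was at 1.71 and 2.50 against 3.64 and 3.11 (2.40-fold). The 2 genes overlap on opposite strands. Other Xist probes did not separate the groups. Slc22a18, an imprinted transporter gene, was 2.85-fold higher in the oxysterol-Oct4 lines, at 2.59 and 2.26 against 0.89 and 0.94, and its second probe overlapped.

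Glycolysis and cell division genes lay higher in the oxysterol-Oct4 lines at about the share of other bright genes. Of 20 glycolysis genes 5 lay higher there and 0 in the purmorphamine-Oct4 lines. Oxysterol-Oct4 line 1 was the highest of the 4 lines for 15 of the 20, beside 29.4% of all genes. Aldoc, an aldolase, was at 1.80 and 0.96 against -2.01 and -0.03 (5.28-fold). With 7 saturated genes left out the count was 3 and 0 of 13. Of 30 genes of mitosis and replication 9 lay higher in the oxysterol-Oct4 lines and 2 in the purmorphamine-Oct4 lines, each by less than 2-fold. Both lists are bright, and their shares of 25% and 30% in favour of oxysterol stand beside 27.0% of the brightest 25% of detected genes, with 18 of 20 and 21 of 30 genes in the brightest 25% of detected genes.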

How the data were processed

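RNA of 12 mouse samples was measured on 12 one-colour Agilent arrays with 60-base probes, and the 4 arrays of the oxysterol-Oct4 and purmorphamine-Oct4 lines were compared. The deposited intensity values were written by Agilent Feature Extraction 9.5.3.1 as processed, background-subtracted signals, per the file headers; no scaling between arrays had been made. The deposited flags (well above background, saturated, outlier) come from the same software, per the file headers. The sources used here state no further step.

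Outlier spots were left out, spots of a probe averaged as log2 signal, and the array's 75th percentile over 43379 gene spots subtracted. Each of 25415 genes well above background on at least 1 of the 12 arrays was represented by its brightest probe; names came from RefSeq through the accession for 22951 of 41174 probes and through the symbol for 9768, and were kept as deposited for 8455. Probes of 1 gene can disagree; other probes are described for some of the named genes. Differences were fitted with limma 3.58.1 in R 4.3.3 over 8 groups (prior degrees of freedom 2.26) with Benjamini-Hochberg adjustment; groups of 1 array add no spread. Gaps and folds raise each signal below its array's floor to that floor, from -5.83 to -4.51 log2 units on the 4 arrays. Tested on simulated data of 25407 genes for this comparison, the fit found 2% of changes of 2 log2 units, 48% of 4, 54% of 6 and 64% of 8, with 3 false calls.

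The members and the 32 lists were chosen with earlier results of these data known. Genes were named by rule: Pou5f1, Sox2, Nanog, Bmi1, Smo, Ptch1 and Gli1; the 12 widest gaps each way with a proper symbol; the 10 largest changes past the test each way; and up to 4 list members with a gap of at least 1. Further list members and the genes at the edge of the gap serve as examples picked with their values known. Alternatives were quantile normalization, normexp background (offset 50), a percentile over probes detected everywhere, dropping the filter, a filter of 6 arrays, averaging a gene's probes, limma's trend, slide or clone number as a block, values within 1 slide and each line left out. Chosen after seeing the data were the crossed clone numbers, leaving out saturated genes, list counts under the detected-probe scaling and raising signals to the highest floor. A few genes named by these rules or held by these lists are counted but not reported here.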

Additional observations from a re-analysis of the deposited data

How the results depend on the processing

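The limma test called 0 genes in either direction under each of the 17 alternatives, including the clone number as a replicate block and the crossed clone numbers as a replicate block. Deviations of same-numbered oxysterol-Oct4 and purmorphamine-Oct4 lines had r = -0.14, so the numbers were not taken to pair the lines. Of the named genes' differences under alternatives, 823 kept their direction and 9 reversed. Reversed were Pou5f1 (0.23) and Ptch1 (0.60) with slide as a fixed block, within the slide of the oxysterol-Oct4 lines, or without purmorphamine-Oct4 line 1, Ptch1 (0.46) and Nanog (0.12) without oxysterol-Oct4 line 1, and Gli1 (-0.088) without oxysterol-Oct4 line 2. With each line left out in turn Pou5f1 ran from -0.54 to 0.23, Ptch1 from -1.27 to 0.60, Nanog from -1.0 to 0.12 and Gli1 from -0.088 to 0.98. All 4 overlapped between the groups.

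Counts of genes without overlap rise by construction when fewer lines have to separate. Leaving out 1 line gave 6262 to 8136 genes higher in oxysterol-Oct4 and 4765 to 6548 higher in purmorphamine-Oct4, and 817 to 2025 and 958 to 2167 at a gap of 1. Within the slide of the oxysterol-Oct4 lines they were 6663 and 5080, and 817 and 1555 at a gap of 1. With normexp background, 150 genes had a gap of 1 in favour of purmorphamine, against 326; the cause was not tested.

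Of the lists, with 1 line left out hedgehog counts ran from 8 to 10 in favour of oxysterol and 5 to 9 in favour of purmorphamine, and with detected-probe scaling the first was 3. Members in favour of purmorphamine ran from 3 to 5 for the cilium (2 with quantile normalization), 2 to 4 for cholesterol synthesis, 1 to 4 for epithelial genes (1 with normexp) and 9 to 23 for interferon genes, of which 0 to 5 were in favour of oxysterol. Median differences with 1 line left out ran from -0.052 to 0.38 for the cilium, 0.44 to 0.74 for cholesterol synthesis, 0.45 to 0.76 for epithelial genes, -0.24 to 0.66 for smooth muscle, -0.97 to 3.62 for the Dlk1-Dio3 cluster, -0.30 to 0.70 for germline genes, -0.12 to 0.51 for stress genes, 0.0053 to 0.17 for p53 genes, 0.25 to 0.67 for glycolysis, -0.15 to 0.36 for the respiratory chain and -0.30 to 0.079 for endothelium. With quantile normalization the medians were 0.018 for germline, 0.043 for p53, 0.31 for glycolysis and 0.045 for endothelium genes. With normexp they were 0.11 for germline and 0.058 for endothelium genes, and with detected-probe scaling 0.066 for p53 genes. Precision is limited by 2 lines a group, by probes near background and by saturated spots.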

Other observations

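Purmorphamine-Oct4 line 1 stood apart from the other 3 lines at a few loci. Meg3, a maternally expressed non-coding RNA of the imprinted Dlk1-Dio3 cluster, was at 3.41 and 3.07 in the oxysterol-Oct4 lines, -4.51 in purmorphamine-Oct4 line 1 and 2.61 in line 2. Its level was 3.01 in MEF and -3.22 in ES, so purmorphamine-Oct4 line 1 lay on the side of ES. Rian, another non-coding RNA of the cluster, had the same pattern, at -0.41 and 0.94 against -5.88 and 1.23. The Y-linked gene Ddx3y was at 0.86 and -2.67 in the oxysterol-Oct4 lines and -6.74 and 1.71 in the purmorphamine-Oct4 lines, and Eif2s3y at 1.22 and -1.26 against -7.01 and 1.85. Rian, Ddx3y and Eif2s3y overlapped between the groups. Meg3 lay higher in both oxysterol-Oct4 lines, and 1 of its 4 other probes had that order.

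Over the 927 detected genes with a probe on chromosome 8, the median difference was 0.22, beside 0.08 over all detected genes, and 23.5% lay higher in both oxysterol-Oct4 lines and 10% in both purmorphamine-Oct4 lines, beside 20.7% and 13.4% of detected genes. Chromosomes 9 and 7 had close shares in favour of oxysterol, 23.4% and 22.5%, with median differences of 0.12 and 0.11. The median deviation of the chromosome 8 genes from the iPS median was 0.17 in oxysterol-Oct4 line 1 and 0.028 in line 2. It was -0.087 and 0 in the purmorphamine-Oct4 lines, 0.16 in the Shh-Oct4 line and -0.096 and -0.074 in the Bmi1-Oct4 lines.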
